A study of Mus musculus with 188 samples.

Results

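The HIF target genes followed here are 10 genes that the hypoxia-inducible transcription factors switch on when oxygen is short, namely Egln3, Vegfa, Adm, Slc2a3, Pgk1, Ldha, Pdk1, Bnip3, Ndrg1 and Ankrd37. They were chosen by name, and all 10 were found by their Ensembl identifiers among the 25655 genes listed in the batch 1 files and the 25528 listed for batches 2 and 3. Bulk mRNA was measured in organotypic brain slice cultures (BSCs), which are coronal slices of brain from young adult C57BL/6J mice kept at an air-liquid interface and exposed to blood breakdown products from culture day 7. Of 188 libraries, 167 could be assigned to a group, and all of them enter the levels below. Batch 1 held 60 libraries of 24 h exposure, 10 each of control, heme-albumin (heme bound to albumin) at 12.5, 50, 200 and 400 μM, and hemeHpx (heme bound to its scavenger hemopexin) at 200 μM. The titles of the hemeHpx libraries name haptoglobin, whereas their treatment tags and library names give Hpx, which was followed.

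The other assigned libraries belong to batches 2 and 3. After 24 h there were 10 controls, 10 libraries each of free hemoglobin (Hb) at 200 and 400 μM, 8 and 4 of the hemoglobin-haptoglobin complex (HbHp) at 200 and 400 μM, and 12 of haptoglobin alone (Hp) at 400 μM. After 48 h the same groups held 9, 10, 10, 8, 5 and 11 libraries. All groups were wild-type tissue with no transgene, and every slice carried the slicing injury and the same serum-free medium. The labels do not tie libraries to animals, and 12 of the 18 groups hold 2 libraries with the same code in their names, so p-values measure the spread between libraries, which may in part be technical.

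Cells hydroxylate the α subunits of hypoxia-inducible factors when oxygen and iron are at hand, which marks them for destruction by the von Hippel-Lindau ubiquitin ligase. The enzymes that do so, the prolyl hydroxylases of the EGLN family, use iron(II), oxygen and 2-oxoglutarate, and one of them, Egln3, is itself induced by HIF and so closes a feedback loop. Stabilized HIF pairs with ARNT and binds hypoxia response elements whose core reads ACGTG or GCGTG. In the brain its targets raise glucose uptake and glycolysis, divert pyruvate from mitochondria and call for new vessels.

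The sequences upstream of the genes are shown because the members rose and fell together from library to library, as described further on. RefSeq promoter windows of GRCm38.p6, which run from 250 bases before to 50 bases after a gene start, were at hand for 8 of the 10 members (11 windows). The submitters' processing notes name another build, GRCm39. The core letters on either strand stood in 81.8% of the member windows against 43.8% of all 32851 windows, and ACGTG itself in 54.5% against 19.6%. The median GC content was 62% in the member windows and 52.7% in all windows, and its part in these shares was not tested. The members were chosen as known HIF targets, so the shares are a description only. CACGTG holds the core on both strands and was counted on each. Capitals mark the core letters in the following stretches, each read along the strand of its gene from upstream of the start.
Pgk1, chrX:106186920-106187003, plus strand: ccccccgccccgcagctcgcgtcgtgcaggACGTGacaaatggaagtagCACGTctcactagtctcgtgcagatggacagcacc
Ldha, chr7:46845629-46845694, plus strand: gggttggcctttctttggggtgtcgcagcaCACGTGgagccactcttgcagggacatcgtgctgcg
Bnip3, chr7:138909571-138909653, minus strand: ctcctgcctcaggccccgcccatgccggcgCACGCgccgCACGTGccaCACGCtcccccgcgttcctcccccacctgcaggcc
Egln3, chr12:54204069-54204124, minus strand: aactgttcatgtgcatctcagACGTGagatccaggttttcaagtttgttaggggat
Adm, chr7:110627537-110627637, plus strand: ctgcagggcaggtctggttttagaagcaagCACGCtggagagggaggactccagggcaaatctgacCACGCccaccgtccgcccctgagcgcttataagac
The match is one of letters. The first of 2 Vegfa windows and the second of 2 Pdk1 windows held no core within their 300 bases, whereas the other Vegfa and Pdk1 windows held 2 each. That other Vegfa window, chr17:46025114-46025413 on the minus strand, lies downstream of the first. Elements farther out were not searched. The Pgk1 and Bnip3 stretches each carry more than 1 core within 84 and 83 bases, whereas that of Egln3 carries 1.

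Total counts ran from 11038484 to 54174784 per library, with medians of 22054776, 46896475.5 and 28435992 in batches 1, 2 and 3. Exposure was followed through Hmox1 (heme oxygenase 1, the enzyme that opens the heme ring). It rose by 1.32 on the log2 scale with heme-albumin at 200 μM (adjusted p = 4.72e-07, edgeR), by 0.79 with hemeHpx (adjusted p = 0.0185), by 0.85 with Hb at 200 μM and 48 h (adjusted p = 0.00787) and by 1.22 with HbHp at 200 μM and 48 h (adjusted p = 4.85e-05). With heme-albumin at 12.5 μM and with Hb at 200 μM and 24 h it did not pass (0.46 and 0.70, adjusted p = 0.614 and 0.0875). Hp without heme or hemoglobin raised Hmox1 too, by 0.73 at 24 h (adjusted p = 0.0483) and by 1.11 at 48 h (adjusted p = 0.000185), and HbHp did not pass against Hp at 400 μM (0.66 and 0.30, adjusted p = 0.217 and 0.517). Markers of neurons, astrocytes, oligodendrocytes, microglia, endothelial and mural cells were present in every group, while none of the 5 erythroid markers passed the filter on low counts. Choroid plexus markers came and went between libraries, with summed levels from 1.7 to 3362.2 CPM (counts scaled to a common library total) among the batch 1 controls alone. Library names in batches 2 and 3 carry the prefix E1 or E2, whose meaning the labels do not give, and these sets stood apart. Of all genes tested, 68.0% differed between E2 and E1 libraries of equal treatment, and all HbHp libraries are E2 and batch 3, whereas only 3 of 10 controls at 24 h and 2 of 9 at 48 h are E2. Only 1 control at each time is both E2 and batch 3. The tests of batches 2 and 3 therefore carried terms for batch and for E1 or E2.

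Few values of the HIF target genes passed the test, at about the rate of all genes. Over 15 comparisons of a treatment with its control, 150 values in all, 9 passed an adjusted p of 0.05 (edgeR), 8 lower and 1 higher than control. That is 6% of the values, where 6.27% of the values of all genes in the same comparisons passed. They belong to 4 members, Pdk1, Slc2a3, Egln3 and Ldha, and the other 6 members passed in none of the 15. No comparison had more than 3 members called, and 9 had none. Treatments within a batch and time share their controls, so these counts are not independent of each other.

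**Figure D1:**
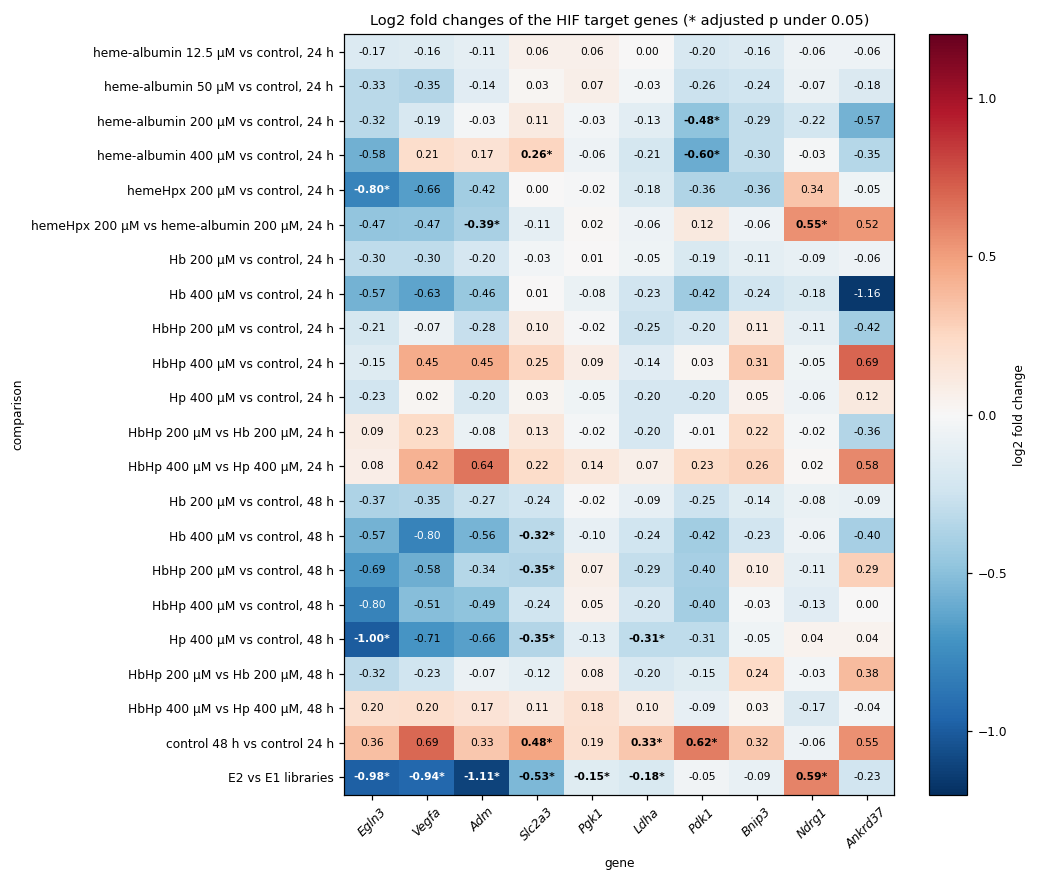
Log2 fold changes of the 10 HIF target genes (columns, ordered by role) in 21 comparisons and between the E2 and E1 libraries (rows), with red for higher and blue for lower in the first-named group and an asterisk for an adjusted p under 0.05. Asterisks are scattered and mostly blue in the treatment rows, stand at 3 genes in the row of the 48 h against the 24 h controls, all red, and at 7 genes in the bottom row.

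Pdk1, the kinase that switches off pyruvate dehydrogenase and keeps pyruvate out of the mitochondria, was lower with heme-albumin at the upper doses. In batch 1 controls it ran from 18.97 to 48.7 CPM with a median of 27.5. At 12.5, 50, 200 and 400 μM heme-albumin the medians were 26.1, 25.7, 22.4 and 22.6 CPM, and the highest libraries stood at 41.9, 38.8, 30.8 and 28.2 CPM. The ranges overlapped at every dose, but the upper end came down step by step and the lowest library of the 400 μM group, at 11.5 CPM, lay under every control. Pdk1 was lower by 0.48 ± 0.16 on the log2 scale at 200 μM (SE, n = 10 and 10, adjusted p = 0.0342, edgeR) and by 0.60 ± 0.16 at 400 μM (adjusted p = 0.00318). At 12.5 and 50 μM the log2 fold changes of -0.20 and -0.26 did not pass. With no filter on low counts the value at 200 μM missed the threshold (adjusted p = 0.0556). Some markers of other cells were called lower at the same doses. At 200 and 400 μM these were 6 and 2 of 8 microglial, 3 and 5 of 8 astrocyte, 2 and 2 of 6 mural and 1 and 1 of 8 endothelial markers, and their part in the result was not tested. Among Pdk1's relatives in a list of pyruvate dehydrogenase regulators, Pdk2, Pdk3 and Pdk4 fell at 200 μM by 0.20, 0.23 and 0.38.

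Read against all genes, these are small counts. At 12.5 and 50 μM heme-albumin no member was called, with 0.0450% and 0.463% of the 15554 genes tested called. At 200 μM 1 of 10 members was called where 13.6% of all genes were, and at 400 μM 2 of 10 where 29% were. The median log2 fold change of the members was -0.20 at 200 μM and -0.13 at 400 μM, beside -0.01 for all genes in both comparisons.

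Slc2a3 encodes GLUT3, the high-affinity glucose transporter best known from neurons. It was the single member called higher with a treatment than in control. Controls of batch 1 ran from 24.6 to 40.1 CPM (median 31.8) and the 400 μM libraries from 32.1 to 48.4 CPM (median 38.9). The groups overlapped in part, and the log2 fold change was 0.26 ± 0.082 (adjusted p = 0.0131, edgeR). Ldha, which makes lactate from pyruvate, and Pgk1, an ATP-producing step of glycolysis, were not called at any dose. At 400 μM Ldha stood at 269 to 361.9 CPM against 278.7 to 504.7 CPM in controls. Its log2 fold change was -0.21 with a 95% interval from -0.38 to -0.03 (adjusted p = 0.0691). Pgk1 had a log2 fold change of -0.06, with an interval from -0.26 to 0.14.

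Egln3 and the vessel-directed ligands were lowest with hemeHpx. Egln3 ran from 10.5 to 53.9 CPM in controls (median 27.6) and from 11.96 to 22.5 CPM with hemeHpx (median 14.9), so the treated libraries lay within the lower part of the control range. The log2 fold change was -0.80 ± 0.23 (n = 10 and 10, adjusted p = 0.0381, edgeR). Without a filter on low counts the adjusted p was 0.0546, and with a correction for GC content and transcript length, which left 109 of 1276 calls over all genes, it was 0.0597. Vegfa, the principal growth factor for endothelium, ran from 45.4 to 189.7 CPM in controls (median 67.1) and from 36.9 to 112.6 CPM with hemeHpx (median 58.8). Its difference of -0.66 had an interval from -1.10 to -0.21 and did not pass (adjusted p = 0.0541). Adm, the precursor of the vasodilator peptide adrenomedullin, ran from 7.94 to 23.7 CPM in controls and from 9.17 to 13.97 CPM with hemeHpx, with a difference of -0.42 that did not pass either (adjusted p = 0.0635). DESeq2 called both Vegfa (adjusted p = 0.0345) and Adm (adjusted p = 0.0440). With hemeHpx 1 of 10 members was called beside 8.20% of all genes, and the member median was -0.27 against 0.00. More members were called with the library code in the model, as given in the section on processing.

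Hemopexin against albumin as the carrier of 200 μM heme can be compared directly. Ndrg1, a stress-responsive gene that is also abundant in oligodendrocytes, ran from 123.5 to 211.4 CPM with hemeHpx (median 172.3) and from 92.1 to 153.2 CPM with heme-albumin (median 109.8). Its median in the controls was 129.2 CPM, and it was not called between hemeHpx and control. Most hemeHpx libraries lay above most heme-albumin libraries, with some overlap, and the log2 fold change was 0.55 ± 0.13 (adjusted p = 0.00154, edgeR). Adm was lower with hemeHpx by 0.39 ± 0.15 (adjusted p = 0.0480), with ranges of 9.17 to 13.97 and 12.4 to 21.01 CPM. Without a filter on low counts Adm missed the threshold (adjusted p = 0.0595). These are 2 of 10 members, where 25.9% of all genes were called. Between the same groups 7 of 8 microglial markers were higher with hemeHpx and 3 of 8 oligodendrocyte markers higher and 2 lower. In a description over the 60 libraries of batch 1, deviations of Ndrg1 from its group means went with those of several summed marker lists. The r was 0.84 for choroid plexus, 0.83 for microglial, 0.77 for endothelial, 0.73 for oligodendrocyte and 0.72 for mural markers. It was 0.395 for neuronal and -0.434 for astrocyte markers. In batches 2 and 3 r was lower for the first 5 lists, at 0.345, 0.22, 0.17, 0.55 and 0.15 in the same order. The part of these cells in the result was not tested, and in bulk tissue fewer cells of a type cannot be told apart from less RNA in each.

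Bnip3, which marks mitochondria for removal, and Ankrd37, an ankyrin repeat protein, were not called in any batch 1 comparison. Bnip3 ran from 26.8 to 54.95 CPM in controls, from 22.2 to 45.7 CPM with 200 μM heme-albumin and from 19.7 to 49.99 CPM with hemeHpx. The log2 fold changes of Bnip3 were -0.29 and -0.36, with adjusted p of 0.172 and 0.0867. Ankrd37 was scarce, with 1 to 103 reads per library over the whole series, and overlaps Ufsp2 and Lrp2bp on the other strand, so its values are the least certain. In controls it ran from 0.182 to 2.39 CPM.

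**Figure D2:**
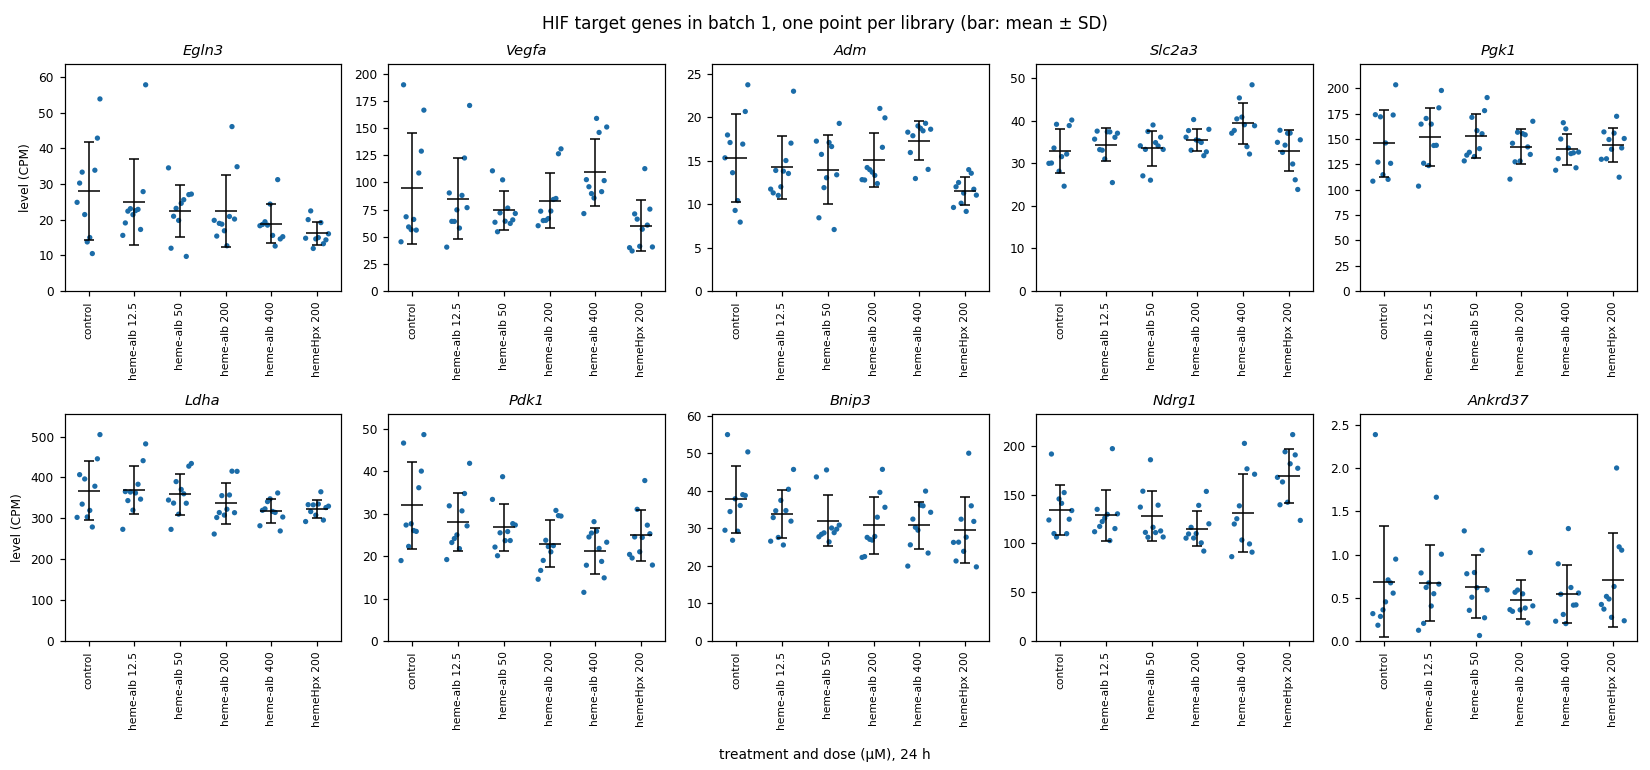
Levels of the HIF target genes in CPM (vertical axes, linear from 0) in the 6 groups of batch 1, 1 point per library and a bar for mean ± SD (n = 10 each). The spread of the controls covers most treated libraries, and the Pdk1 means come down from 31.99 to 21.2 CPM between control and 400 μM heme-albumin.

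After 24 h of hemoglobin no member was called in any comparison. The shares of all 16473 genes called were 0.0971% for Hb at 200 μM, 0.522% for Hb at 400 μM, 1.93% for HbHp at 200 μM, 5.15% for HbHp at 400 μM and 0.704% for Hp at 400 μM. The member medians were -0.10, -0.33, -0.15, 0.17 and -0.06, beside 0.01, 0.00, 0.00, -0.00 and -0.00 for all genes. DESeq2 called no member in these comparisons either. Unadjusted, 8 members stood under p = 0.05 with Hb at 400 μM, as did 1141 of the 16473 genes. There Vegfa ran from 27.3 to 65.9 CPM (median 35.9) against 28.4 to 131 CPM in controls (median 65.6), a difference of -0.63 with an interval from -1.07 to -0.19 (adjusted p = 0.348, edgeR). The treated libraries filled the lower part of the control range. Ankrd37 ran from 0.0385 to 0.685 CPM against 0.132 to 1.35 CPM, with the widest difference of all members at -1.16 and an interval from -1.93 to -0.39 (adjusted p = 0.289).

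The small HbHp 400 μM group at 24 h was not called for the ligands. Its 4 libraries had Vegfa levels of 58.8, 50.3, 46.03 and 32.2 CPM and Adm levels of 11.5, 7.22, 6.84 and 3.96 CPM. They fell within the range of the controls for both genes, with means of 46.8 against 67.8 CPM for Vegfa and 7.37 against 10.2 CPM for Adm. All 4 are E2 libraries, and the 3 E2 controls had lower means of 38.2 CPM for Vegfa and 5.79 CPM for Adm. The log2 fold changes fitted with the batch and E1/E2 terms were 0.45 for Vegfa (adjusted p = 0.513, edgeR) and 0.45 for Adm (adjusted p = 0.471). They were above 0, unlike the differences from the mean of all controls, and did not pass. Without the batch and E1/E2 terms the member median turned from 0.17 to -0.17.

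After 48 h the median of the members was below 0 in all 5 comparisons with control (-0.19 and -0.36 for Hb at 200 and 400 μM, -0.31 and -0.22 for HbHp, -0.31 for Hp), and Slc2a3 passed the test in 3 of them. Within E2 libraries alone, with 2 controls, the medians were 0.10, 0.0116, 0.16, 0.10 and 0.0691 in the same order, and no member was called. The 9 controls had Slc2a3 at 32.1 to 69.6 CPM with a median of 41. Levels ran from 24.95 to 51.3 CPM with Hb at 200 μM, from 23.3 to 49.3 CPM with Hb at 400 μM, from 21.2 to 31.8 CPM with HbHp at 200 μM and from 22.3 to 43.1 CPM with Hp at 400 μM. The 5 HbHp libraries at 400 μM had 27.4, 28.5, 30.6, 30.9 and 24.9 CPM. All HbHp libraries, which are E2 only, thus lay below all controls, including the E2 controls at 32.8 and 32.1 CPM. The Hb and Hp groups, which hold E1 libraries too, overlapped with the controls. Their E2 libraries alone also lay below both E2 controls. These ran from 24.95 to 30.8 CPM with Hb at 200 μM, from 23.3 to 31.3 CPM with Hb at 400 μM and from 22.3 to 29.9 CPM with Hp. Slc2a3 was the single member of 10 whose HbHp and control libraries did not overlap, and the share of all genes without overlap is not given here. The test, a different criterion, called 11.9% of all genes in each of the 48 h comparisons of HbHp with control.

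With the terms for batch and E1/E2, the log2 fold change of Slc2a3 at 48 h was -0.35 ± 0.11 for HbHp at 200 μM (adjusted p = 0.0173, edgeR), -0.35 ± 0.096 for Hp at 400 μM (adjusted p = 0.0104) and -0.32 ± 0.084 for Hb at 400 μM (adjusted p = 0.0390). Hb at 200 μM (-0.24, adjusted p = 0.474) and HbHp at 400 μM (-0.24, adjusted p = 0.186) did not pass. Within E2 libraries alone, where the controls are 2 libraries, the difference for HbHp at 200 μM was -0.27 and was not called (adjusted p = 0.236), and within batch 3 alone it was -0.17 (adjusted p = 0.535). The value for Hb at 400 μM was not called within E1 (-0.33, adjusted p = 0.231) or E2 (-0.31, adjusted p = 0.282) alone, nor that for Hp (-0.37, adjusted p = 0.0687, and -0.29, adjusted p = 0.488).

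Egln3 at 48 h was 7.37 to 56.1 CPM in controls (median 22.6) and 5.34 to 14.2 CPM with Hp at 400 μM (median 9.26). Its log2 fold change with Hp was -0.997 ± 0.27 (adjusted p = 0.00968, edgeR). Ldha fell with Hp as well, from 299.2 to 499.8 CPM in controls to 255.9 to 343.5 CPM, a difference of -0.31 ± 0.11 (adjusted p = 0.0460). The control ranges were wide because of the E1 libraries, in which Egln3 had a median of 31.7 CPM, while the E2 controls had 7.37 and 8.28 CPM. Within E2 alone the Egln3 difference with Hp was 0.03 (adjusted p = 0.991) and within batch 3 alone -0.51 (adjusted p = 0.905). Within E2 alone Ldha had -0.08 (adjusted p = 0.943).

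The number of members called with HbHp depended on the E1/E2 term. At 48 h and 200 μM 1 of 10 members was called with both terms, 5 with the batch term alone and 6 with neither, all lower, while the count of all genes called went from 1959 to 4066 and 5150. The member median was -0.31 with both terms and 0.16 within E2 alone, where no member was called. At 400 μM no member was called with both terms, and 4 and 5 were without the E1/E2 term and without either, where all genes called went from 1968 to 3356 and 4300. Vegfa shows the range. With HbHp at 200 μM it ran from 28.1 to 56.9 CPM, against 64.1 to 253.2 CPM in the 7 E1 controls and 33.4 and 29.8 CPM in the 2 E2 controls. The E1/E2 term is a single shift per gene shared by all groups, whereas the observed gap varied. Mean Vegfa at 48 h was 146.5 CPM in E1 and 31.6 CPM in E2 controls. It was 97.6 and 52.7 CPM with Hb at 200 μM, and 65.2 and 33.9 CPM with Hp. Whether the gap differs between groups was not tested. For HbHp, treatment and E2 cannot be told apart beyond what those 2 controls and this shared shift allow. Of all genes, 0.310% were called with Hb at 200 μM, where no member was, 0.601% with Hb at 400 μM, where 1 of 10 was, and 10.8% with Hp at 400 μM, where 3 of 10 were.

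No member passed between HbHp and free Hb at 200 μM, at 24 h (0.607% of all genes called) or at 48 h (4.98%), nor between HbHp and Hp at 400 μM, at 24 h (0.619%) or at 48 h (1.44%). Within E2 alone 1 member, Ndrg1, was called lower with HbHp than with Hp at 48 h. The intervals were wide. For Vegfa the difference of HbHp from Hb had an interval from -0.33 to 0.79 at 24 h and from -0.77 to 0.30 at 48 h. For Pgk1, the steadiest member, it ran from -0.17 to 0.13 and from -0.07 to 0.23. The change of the treatment effect between 24 h and 48 h was tested as an interaction and no member passed, with 0% of all genes called by edgeR for Hb (118 at an unadjusted p under 0.05, and 0 by DESeq2) and 0.0121% for HbHp. The closest was Slc2a3 for HbHp, at -0.46 with an interval from -0.70 to -0.21 (adjusted p = 0.225).

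In untreated slices Slc2a3, Pdk1 and Ldha were higher at 48 h than at 24 h, 3 of 10 members beside 4.50% of all genes, and no member was lower. Slc2a3 went from 23.01 to 44 CPM at 24 h to 32.1 to 69.6 CPM at 48 h, a log2 fold change of 0.48 ± 0.084 (n = 9 and 10, adjusted p = 0.000254, edgeR). Pdk1 went from 18.3 to 33.6 CPM to 24 to 61.1 CPM, by 0.62 ± 0.16 (adjusted p = 0.0135). Ldha rose by 0.33 ± 0.093 (adjusted p = 0.0269). The ranges of both times overlapped for each gene, and the highest 48 h controls lay above every 24 h control. Vegfa, with a median of 108.8 CPM at 48 h against 65.6 CPM at 24 h, had the largest difference at 0.69 but did not pass (adjusted p = 0.0593), as it was spread from 29.8 to 253.2 CPM at 48 h. The glycolytic enzymes moved the same way, with 8 of 14 higher and none lower, among them Pfkp by 0.44, Gpi1 by 0.40 and Tpi1 by 0.29. Within E1 alone (7 and 7 libraries) only Slc2a3 was called, and within E2 alone (3 and 2 libraries) no member was, with 0.38 for Slc2a3 (adjusted p = 0.137). In those E2 controls the mean of Vegfa was 38.2 CPM at 24 h and 31.6 CPM at 48 h. The means of Pdk1 (21.7 and 29.8 CPM) and Ldha (250.2 and 314.3 CPM) were higher at 48 h there.

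**Figure D3:**
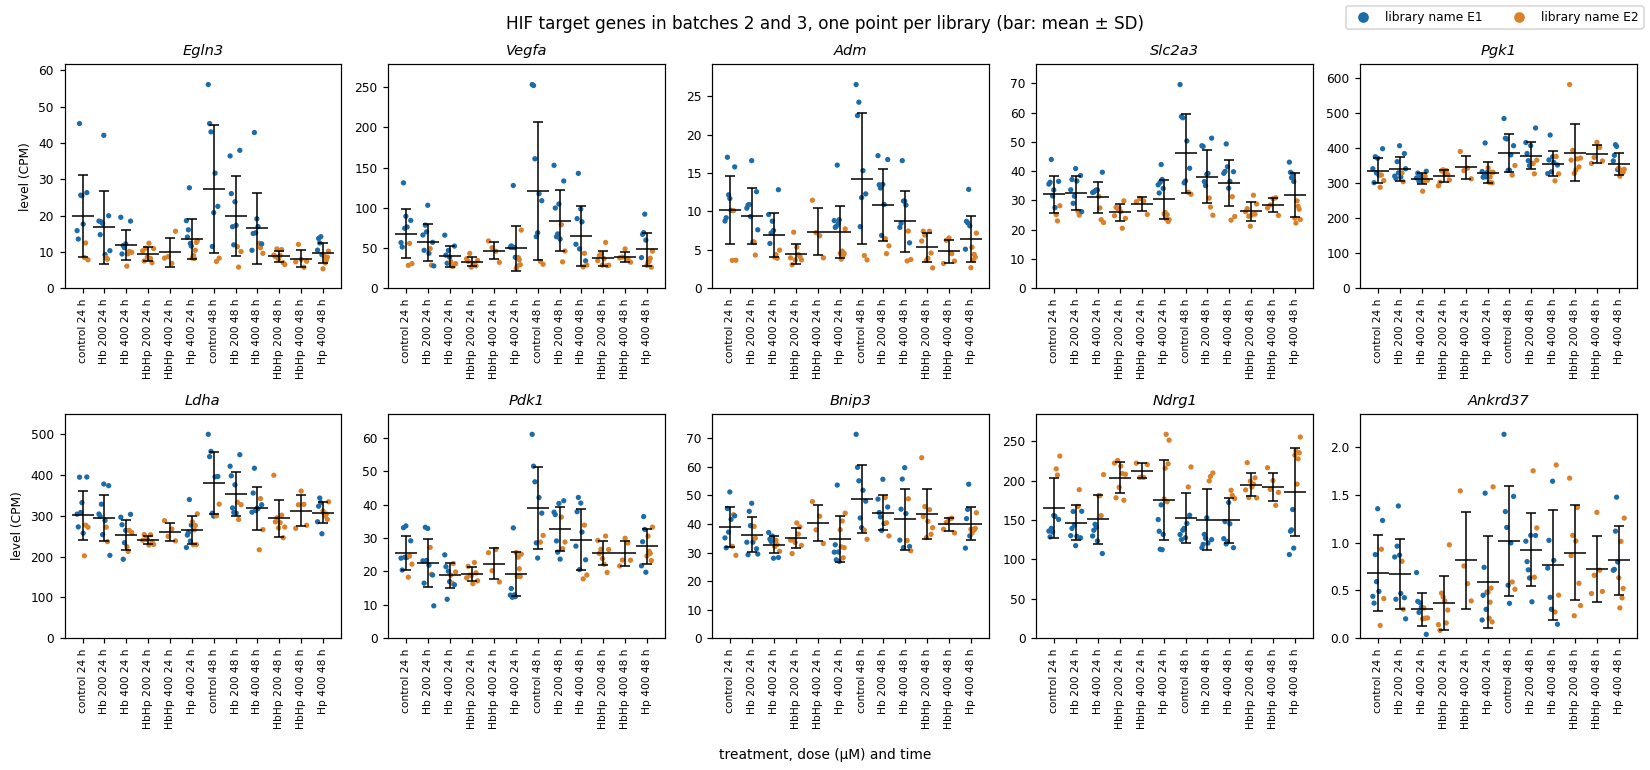
Levels of the HIF target genes in CPM (linear from 0) in the 12 groups of batches 2 and 3, 1 point per library, blue for names with E1 and orange for E2, with a bar for mean ± SD (n = 4 to 12). The highest point of Egln3, Vegfa and Adm is blue and that of Ndrg1 orange in each of the 8 groups that hold both, and all HbHp points are orange.

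Between E2 and E1 libraries of equal treatment the members differed at about the rate of all genes. Of 10 members 6 were lower and 1 higher in E2, beside 68.0% of all genes. Adm, Egln3 and Vegfa fell by 1.11 ± 0.12, 0.98 ± 0.13 and 0.94 ± 0.12 on the log2 scale (adjusted p = 2.8e-14, 1.38e-10 and 1.45e-10, edgeR). Over all treatments Egln3 ran from 9.26 to 56.1 CPM in 53 E1 libraries and from 5.34 to 15.7 CPM in 54 E2 libraries. Adm ran from 5.08 to 26.5 and from 2.65 to 11.5 CPM. Slc2a3 was lower by 0.53, Ldha by 0.18 and Pgk1 by 0.15, while Pdk1 (-0.05), Bnip3 (-0.09) and Ankrd37 (-0.23) did not pass.

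Ndrg1 went the other way, with 106 to 172 CPM in E1 and 155 to 259 CPM in E2, and was higher by 0.59 ± 0.039 (adjusted p = 5.79e-25). All 8 microglial markers were higher in E2 too (median 1.08), as were 6 of 8 oligodendrocyte and 7 of 8 endothelial markers, and their part in the members' difference was not tested. Between batches 3 and 2, as the batch tags give them, 17.2% of all genes were called and 1 member, Bnip3, which was lower in batch 3 by 0.25 ± 0.079 (adjusted p = 0.0191).

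Within groups the members rose and fell together. After subtraction of group means from log2 CPM, 36 of the 45 pairs of members were positively correlated over the 60 libraries of batch 1, with a median r of 0.44. Over the libraries of batches 2 and 3, with batch and E1/E2 removed, 43 of 45 were positive and the median r was 0.56. These values are descriptions over libraries that share depth, tissue makeup and in part a code, and they carry no test.

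In batch 1 the closest pairs joined Vegfa with the genes of pyruvate and mitochondrial control, with r of 0.85 for Bnip3 and Pdk1, 0.83 for Vegfa and Pdk1 and 0.80 for Vegfa and Bnip3. Ldha and Pgk1 of the glycolytic chain had r = 0.85. Egln3 and Adm had r = 0.84 with each other but only 0.43 and 0.53 with Vegfa. In batches 2 and 3 r was higher for Egln3 and Adm with Vegfa, with 0.745 for Vegfa and Egln3, 0.795 for Vegfa and Adm, and reached 0.83 for Pdk1 and Ldha and 0.81 for Bnip3 and Pgk1.

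Ndrg1 and Slc2a3 stood aside. Ndrg1 had a median r of 0.02 with the other members in batch 1 and 0.14 in batches 2 and 3. Slc2a3 had -0.07 and 0.39, and the lowest pair in both sets was Slc2a3 with Ndrg1 at -0.455 and -0.361. Deviations of Egln3 went with those of the summed astrocyte markers (r = 0.654 in batch 1 and 0.495 in batches 2 and 3).

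**Figure D4:**
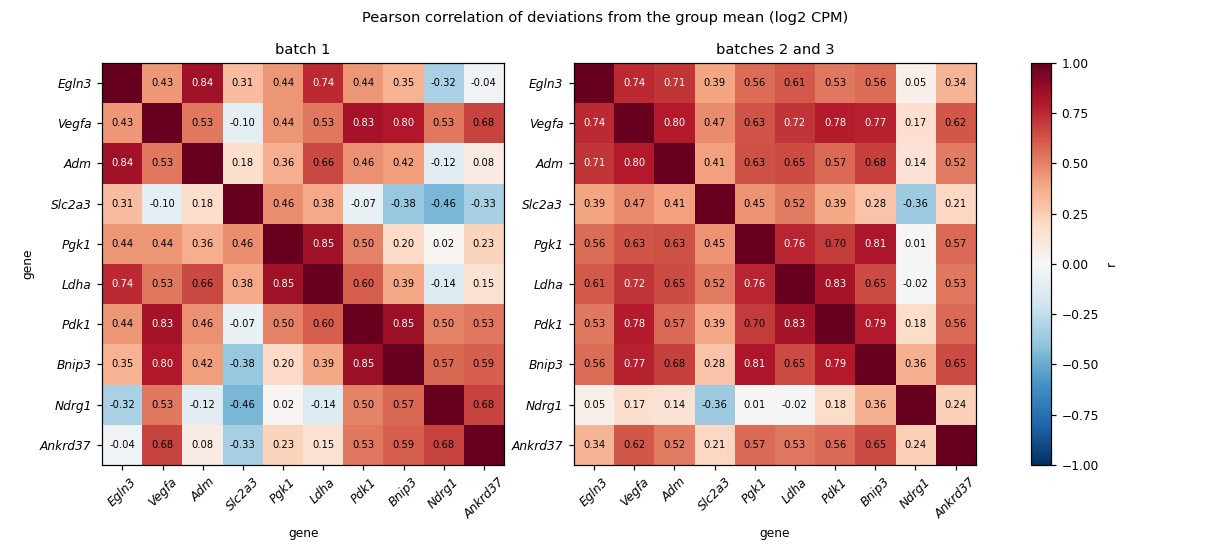
Pearson correlations between the HIF target genes of their deviations from group means, in log2 CPM, for batch 1 (left, 60 libraries) and batches 2 and 3 (right, batch and E1/E2 removed). Red fills most cells in both panels, while most blue cells lie in the rows of Slc2a3 and Ndrg1, down to -0.455 for the pair of them.

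The spread within groups was wide for some members. The SD of log2 CPM within groups was 0.51 and 0.50 for Vegfa and 0.53 and 0.50 for Egln3 in batch 1 and in batches 2 and 3, above that of 86.01% and 79.8% of all genes for Vegfa and of 87.6% and 80.3% for Egln3. Ldha (0.20 and 0.21) and Slc2a3 (0.19 in both) stood near the median gene, which had 0.21 and 0.19. The mean of all 10 members spread from -0.35 to 0.60 among the 10 batch 1 controls on the log2 scale, and from -0.17 to 1.01 among the 48 h controls with batch and E1/E2 removed. Those are wider than the differences between the means of any treated group and its control, the largest of which was -0.37 for Hb at 400 μM and 24 h.

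Genes were also ranked by how closely they followed the mean of the members over libraries. Of 15321 further genes tested in both sets and ranked by the lower of their r values, the first 8 were Car9 (0.88 in batch 1 and 0.89 in batches 2 and 3), Pfkl (0.84 and 0.86), Slc16a3 (0.79 and 0.80), Pfkp (0.78 and 0.80), Tpi1 (0.78 and 0.87), Ak4 (0.79 and 0.77), Ndufa4l2 (0.79 and 0.76) and Cox4i2 (0.83 and 0.76). Car9 encodes carbonic anhydrase 9, a widely used marker of hypoxic tissue. Slc16a3 is a lactate exporter, Pfkl and Pfkp are phosphofructokinases, Tpi1 is a step of glycolysis and Ak4 an adenylate kinase. Ndufa4l2 and Cox4i2 encode alternative subunits of the respiratory chain. Among the first 100 genes 19 came from the lists of further HIF targets and glycolytic enzymes, which hold 39 genes.

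Car9 ran from 2.28 to 33.9 CPM in the batch 1 controls and from 0.686 to 12.2 CPM with 400 μM heme-albumin. In the 48 h controls it ran from 3.61 to 38.8 CPM. Other further HIF targets had low or negative r. Tfrc had r of -0.05 and 0.08, Kdm3a -0.12 and 0.09, and Angptl4 0.18 and -0.38.

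**Figure D5:**
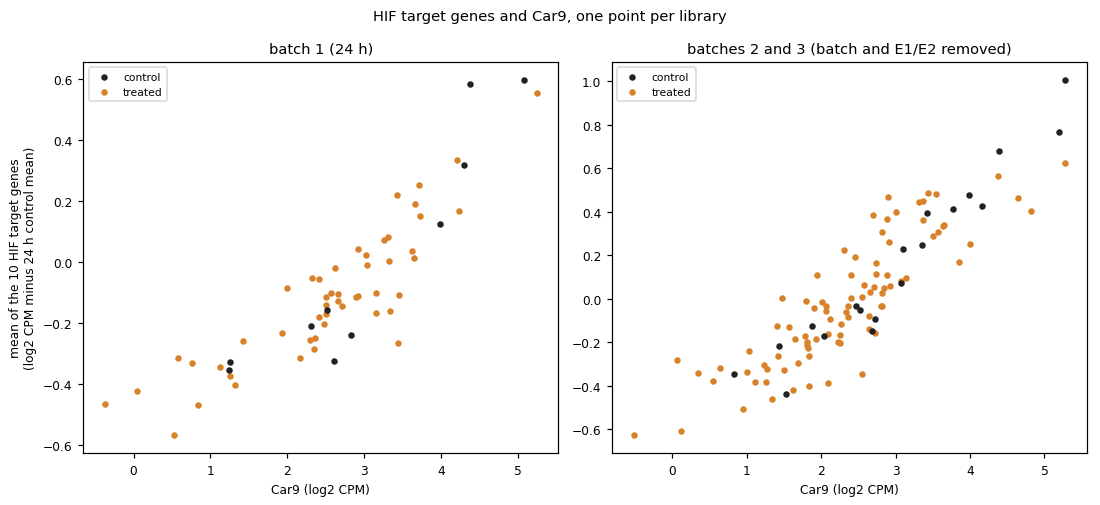
The mean of the 10 HIF target genes in each library (vertical, log2 CPM minus the 24 h control mean) against Car9 (horizontal, log2 CPM), for batch 1 (left) and batches 2 and 3 with batch and E1/E2 removed (right), with controls in black and treated libraries in orange. Libraries of both kinds lie along the same rising band, and the 3 highest means on the right belong to 48 h controls.

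The upstream regulators of the pathway were taken as a list of 10 genes. With heme-albumin at 200 μM 2 were higher and 2 lower, and the named changes were Hif3a, a HIF subunit with an inhibitory splice form, by -0.98 ± 0.14, Epas1, which encodes HIF-2α, by -0.64 ± 0.11, and Cited2, an inhibitor of HIF's coactivator, by 0.57 ± 0.11. With hemeHpx 1 was higher and 2 lower, including Hif1a by -0.29 ± 0.083 (adjusted p = 0.0381, edgeR). With HbHp at 200 μM and 48 h Hif3a fell by 1.13 ± 0.20 and was the 1 regulator called, and with Hb at 200 μM and 48 h none was. The median log2 fold change of the regulators was 0.00, -0.06, 0.00 and -0.06 in these 4 comparisons. Hp at 400 μM and 48 h, outside these 4, lowered Hif3a too, by 0.68 ± 0.18 (adjusted p = 0.00771, edgeR). Egln1 fell there by 0.22 ± 0.057 (adjusted p = 0.00715), and no other regulator was called. Hif3a was also lower in E2 than in E1 libraries, by 0.37 ± 0.085 (adjusted p = 8.99e-05).

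Of 25 further HIF targets, 2 were higher and 5 lower with heme-albumin at 200 μM (median -0.18), 0 and 4 with hemeHpx (median -0.12), 0 and 1 with Hb at 48 h (median -0.06) and 1 and 3 with HbHp at 48 h (median -0.06). Tfrc, the transferrin receptor whose mRNA is also governed by iron, fell by 0.89, 0.61 and 0.72 in the first 3 of these and had -0.12 in the last. Stc2 rose by 0.62 with heme-albumin, Zfp395 fell by 0.31 with heme-albumin and by 0.50 with HbHp, and Ddit4 fell by 0.60 with HbHp. Of 14 glycolytic enzymes 1 was higher and 1 lower with heme-albumin, 2 higher with hemeHpx, none changed with Hb and 1 was lower with HbHp. Those named were Aldoc (-0.44 with heme-albumin), Eno2 (0.62 with hemeHpx), Pfkm (0.17 with hemeHpx) and Pfkl (-0.55 with HbHp). Of the genes named with HbHp, Ddit4 and Pfkl fell with Hp at 400 μM and 48 h as well. Their log2 fold changes there were -0.66 (adjusted p = 5.14e-06, edgeR) and -0.52 (adjusted p = 0.0302). Zfp395 had -0.30 with Hp and did not pass (adjusted p = 0.179).

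A list of 12 targets of ATF4, a transcription factor of the integrated stress response, was counted in the same 4 comparisons. Differences between treatments were not tested. With heme-albumin at 200 μM 9 of 12 rose and none fell (median 0.72), led by Slc7a11 (1.54), Trib3 (1.39), Chac1 (1.37) and Slc3a2 (0.81). The counts higher and lower were 0 and 1 with hemeHpx, 0 and 0 with Hb at 48 h and 4 and 1 with HbHp at 48 h. Of 7 regulators of pyruvate dehydrogenase 3 fell with heme-albumin, 1 with hemeHpx (Pdk3, by 0.28) and none with Hb or HbHp. Cell type markers called in these comparisons were few outside heme-albumin, where Cx3cr1 and Tmem119 of microglia fell by 1.36 and 1.08, Slc1a2 of astrocytes by 0.53, Rgs5 and Acta2 of mural cells by 0.64 and 0.54 and Kdr of endothelium by 0.51, while Olig2 rose by 0.46. With HbHp at 48 h Aldh1l1 fell by 0.70, Acta2 fell by 0.80 and Esam rose by 0.84.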

How the data were processed

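The authors deposited whole-number read counts per Ensembl gene for each library, without normalization. Per the submitters' processing notes, featureCounts was used and the build was GRCm39, while versions, the aligner and the strand setting are not given in the sources used here. Symbols came from the reference tables. Counts were tested with edgeR 4.0.16 in R 4.3.3 (limma 3.58.1), with TMM factors, the filterByExpr rule at 10 counts and a total of 15, the quasi-likelihood F test and Benjamini-Hochberg adjustment over all genes at 0.05. The 60 libraries of batch 1 (15554 genes) were fitted by group. Those of batches 2 and 3 (16473 genes) were fitted by group with terms for batch and for E1 or E2. The SE was taken from the ratio of fold change (log2) to the root of F, and 95% intervals span 1.96 SE on either side. Levels are CPM of TMM-scaled libraries, and correlations use log2 CPM with prior count 2. Other steps used Python 3.11.15, pandas 2.3.3 and matplotlib 3.10.9.

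The members and the lists were chosen with earlier results of these data known. All members are reported. From other lists, up to 4 called genes of the largest change over 4 comparisons (2 for cell types) are named, with Hmox1 as exposure check and the 8 genes most like the members. The models were tested on simulated counts. Alternatives were DESeq2 1.42.0, RLE scaling, no filter or 10 counts in every library, the library code as replicate block, fewer groups, GC and length correction, other batch terms, single batches or E1 or E2 alone, and single libraries left out. The 21 libraries whose labels conflict entered no comparison. No 2 libraries of a group were alike within sampling noise. Depth gives 574 or more reads of Vegfa per library but as few as 1 of Ankrd37.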

Additional observations from a re-analysis of the deposited data

Results flagged for a closer look

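Of 160 sets of 1 member in 1 group of 4 to 10 libraries, 9 held a library far from the others by Dixon's test, where chance alone gives about 1 in 20. HbHp at 200 μM and 48 h replicate 1, an E2 library, was highest in Pgk1 with 582 CPM (next 393.9), Ldha with 399.4 CPM (next 301.3) and Bnip3 with 63.2 CPM (next 46.1). With 12.5 μM heme-albumin, replicate 10 was highest in Egln3 with 57.8 CPM (next 27.9), and replicate 8 was highest in Ndrg1 with 197 CPM (next 134.8) and lowest in Slc2a3 with 25.4 CPM (next 30.98). With Hb at 400 μM and 24 h, replicate 6 was lowest in Pgk1 with 277.3 CPM (next 305.1) and replicate 9 lowest in Ankrd37 with 0.0385 CPM (next 0.200). With Hb at 400 μM and 48 h, replicate 3, an E1 library, was highest in Egln3 with 42.9 CPM (next 19.1).

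Slc2a3 stood out in libraries that entered no comparison. In the 10 libraries tagged HbHpx at 24 h, whose titles name haptoglobin, Slc2a3 had a median of 53.95 CPM and a lowest value of 44.6 CPM, above all 10 controls of 24 h (highest 43.6 CPM, all 128 libraries of batches 2 and 3 scaled together). The difference was not tested.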

How the results depend on the processing

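The median log2 fold change of the members was recomputed for 23 comparisons, and 238 of 248 alternative values kept their direction where called and moved by less than 1 SD of the replicates. It turned from -0.36 to 0.0116 for Hb at 400 μM, from -0.31 to 0.16 for HbHp at 200 μM and from -0.31 to 0.0691 for Hp at 400 μM, each against the 48 h controls within E2 alone. The medians for Hb at 200 μM (-0.19) and HbHp at 400 μM (-0.22) at 48 h turned positive there too. No member was called in those comparisons, so they count among the 238. With the batch term only and with no batch or E1/E2 term, HbHp against Hb at 200 μM and 24 h gave -0.29 and -0.31 in place of -0.02, and HbHp against Hp at 400 μM and 48 h gave -0.14 in both (-0.135471 and -0.135503) in place of 0.11. HbHp at 400 μM against the 24 h controls gave -0.17 with no such term in place of 0.17. Within batch 3 alone HbHp against Hb at 24 h gave 0.22, and the change of the Hb effect between times 0.55 in place of -0.05. With single libraries left out the medians ran from 0.09 to 0.23 for HbHp at 400 μM and 24 h, from -0.32 to -0.18 at 48 h, and from 0.03 to 0.15 for HbHp against Hp at 48 h, and no count of called members changed. The causes of these shifts were not tested. Among 335 alternative values of single members, 35 lost and 35 gained a call and 1 changed sign, Egln3 with Hp at 48 h within E2 alone (0.0276). DESeq2 called 3 members with hemeHpx and 5 between control times, against 1 and 3.

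Replicate numbers were not treated as pairs, since the labels do not say what a code marks. The lowest correlations between groups do not decide this, as libraries with different codes reached -0.742 in batch 1 and -0.73 in batches 2 and 3. Libraries with the same code reached -0.657 and -0.607. Their medians, 0.192 and 0.0611, were above those of different codes (-0.0101 and -0.00498), and 21 of the 60 libraries of batch 1 and 14 of those of batches 2 and 3 correlated best with their own code. With the code as replicate block the count of members called went from 1 to 5 with hemeHpx, from 2 to 4 with heme-albumin at 400 μM, from 3 to 1 with Hp at 48 h, from 1 to 0 with Hb at 400 μM and 48 h and from 3 to 1 between control times. Over all genes the block gave 142 calls between control times against 742, no batch or E1/E2 term gave 5150 with HbHp at 200 μM and 48 h against 1959, and GC and length correction gave 109 with hemeHpx against 1276.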

Other observations

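The 20 libraries tagged HbHpx at 400 μM (10 at each time) carry titles that name haptoglobin, and their members are given here as values. Slc2a3 ran from 42.1 to 56.6 CPM at 48 h, against 25.1 to 31.3 CPM in the 5 libraries of HbHp at 400 μM and 48 h. Egln3 ran from 5.91 to 13.4 CPM at 24 h and from 4.48 to 10.1 CPM at 48 h. Vegfa ran from 37.5 to 67.8 CPM and from 39.98 to 110.6 CPM. Ndrg1 ran from 162.2 to 324.8 CPM and from 146.5 to 266.8 CPM. The single untreated library whose tag and name give different times had 41.96 CPM of Vegfa, 7.2 CPM of Egln3 and 243.4 CPM of Ndrg1.

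Pgk1 had 108.5 to 203.6 CPM in the batch 1 controls and 288.5 to 398.6 CPM in the 24 h controls of batches 2 and 3, while Ldha had 278.7 to 504.7 and 201.7 to 395.1 CPM. These sets were scaled separately and no test was made between them. Both genes have named pseudogenes, and how reads shared with them were assigned is not given in the sources used here.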
